A study of Mus musculus with 8 samples.

Results

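Newborn mouse calvaria, the roof of the skull, was compared with late osteogenic cultures of MC3T3 E1 sc4, 1 subclone of a mouse pre-osteoblast line. The comparison set 3 calvaria libraries against 2 culture libraries, days 17 and 24, in small RNA sequencing. Of 1281 mature miRNAs in the table, 476 had 10 or more counts in at least 2 of these 5 libraries and were tested. The calvaria libraries came from parietal and frontal bones of female C57/B6 mice of 2 to 3 days that carried Prrx1-Cre, a recombinase driven by the promoter of a gene of limb and skull mesenchyme. Those bones had been treated with collagenase (2 mg/ml) and trypsin (0.005%) for 20 minutes before freezing. The cultures, also labelled C57BL/6, were at passage 10 to 15, were plated at 10000 cells per square centimetre and received 50 µg/ml ascorbic acid and 4 mM β-glycerol phosphate. Each culture day was 1 library that pooled RNA of 3 cultures in equal amounts. The column names of both late libraries carry the tag veh, which the names do not explain and the calvaria names lack. MC3T3 days 0, 6 and 10, with 1 library each, were left out of the test and are given where they place a value.

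A miRNA is a short RNA cut from a hairpin precursor, whose 5p and 3p arms can each be loaded into a silencing complex. Bases 2 to 8, the seed, pair with target transcripts, so miRNAs with the same seed are grouped as a family. Many hairpins lie in clusters that are transcribed together, and some clusters sit inside Hox gene complexes or imprinted domains. In bone, miRNAs act on matrix genes, on transcription factors of osteoblasts and on the signals that connect bone with cartilage, vessels and marrow.

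The sequences that carry the main differences are given with the seed in capitals, 5′ to 3′, from RefSeq (GRCm38.p6). The first set shows Hox cluster miRNAs, of which miR-10a-5p and miR-10b-5p exchanged places between the materials. Counted from the 5′ end, they differ by the substitution U12A and share their seed, and miR-196a-5p and miR-196b-5p differ by A12C.
miR-10a-5p: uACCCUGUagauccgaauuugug
miR-10b-5p: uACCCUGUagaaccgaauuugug
miR-196a-5p: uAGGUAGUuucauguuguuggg
miR-196b-5p: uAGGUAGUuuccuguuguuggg

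The second set shows leading miRNAs whose levels were far apart in the 2 materials. The first 3 come from the imprinted Dlk1-Dio3 domain, miR-340-5p comes from an intron of Rnf130, and miR-31-5p and miR-34b-5p were abundant in the cultures.
miR-127-3p: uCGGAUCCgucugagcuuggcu
miR-379-5p: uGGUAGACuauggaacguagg
miR-411-5p: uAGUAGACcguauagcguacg
miR-340-5p: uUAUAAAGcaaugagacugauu
miR-31-5p: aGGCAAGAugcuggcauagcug
miR-34b-5p: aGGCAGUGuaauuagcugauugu

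The third set shows families whose members differed from each other in how they compared between calvaria and culture. The miR-29 members, all lower in calvaria, are shown beside them.
let-7i-5p: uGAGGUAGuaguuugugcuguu
let-7c-5p: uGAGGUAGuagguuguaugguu
let-7b-5p: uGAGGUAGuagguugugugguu
miR-99a-5p: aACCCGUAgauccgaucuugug
miR-100-5p: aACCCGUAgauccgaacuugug
miR-181a-5p: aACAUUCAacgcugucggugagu
miR-181b-5p: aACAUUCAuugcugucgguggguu
miR-181c-5p: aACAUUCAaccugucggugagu
miR-181d-5p: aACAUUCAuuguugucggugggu
miR-29a-3p: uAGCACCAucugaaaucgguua
miR-29b-3p: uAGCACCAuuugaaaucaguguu
miR-29c-3p: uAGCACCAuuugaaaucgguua

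Library totals ran from 1183011 to 2023036 counts in calvaria and were 3940372 and 2742368 counts at days 17 and 24. Levels are given as RPM, read counts scaled to library size, and log2 differences are calvaria minus late culture from an edgeR quasi-likelihood fit with TMM scaling, with their standard error (SE). RPM and the fit differ in scale: the median log2 difference of all 476 miRNAs was 0.12 with TMM and 0.42 with library totals. Whether each calvaria library came from its own animal is not stated in the labels, and the 2 culture libraries are different days, so a p-value here reflects only the variation among these 5 libraries. Tissue and line, growth in the animal and in culture, age and Cre status all changed together and cannot be told apart. Calvaria 3 stood apart from the other calvaria libraries. The median absolute log2 difference over tested miRNAs was 0.20 between calvaria 1 and 2, 0.41 between 1 and 3 and 0.38 between 2 and 3.

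Most measured miRNAs differed between the materials. At an adjusted p under 0.05, 186 miRNAs were higher in calvaria (39.1% of those tested), 161 were lower (33.8%) and 129 did not pass. These percentages are the background against which each group of miRNAs is read. The count of lower miRNAs depended on both culture libraries: it was 94 without day 17 and 107 without day 24. Without calvaria 3 there were 206 higher and 143 lower. The balance also moved with the scaling, from 165 higher and 195 lower with upper quartile factors to 215 higher and 123 lower with library totals.

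The higher miRNAs held 29.5%, 32% and 28.7% of the counts of the calvaria libraries, against 5.54% and 6.46% at days 17 and 24. The lower miRNAs held 31.4%, 29.2% and 34.8% in calvaria and 62.0% on each culture day. RPM ranges of the groups did not overlap for 394 miRNAs (82.8% of those tested), of which 242 (50.8%) were higher in calvaria. Of the 186 higher miRNAs, 171 were above all 5 culture days, while 99 of the 161 lower ones were below all 5. A number of miRNAs were seen in 1 material only: 51 had 10 or more counts in every calvaria library and 0 in both late libraries, 43 of them from Dlk1-Dio3. The reverse held for 2 miRNAs, miR-465b-5p and miR-871-3p, which are named here after their values were seen. A count of 0 over both late libraries allows up to 0.449 RPM (3 counts), and over the calvaria libraries up to 0.659 RPM. These limits cover counting error only. Because of the filter, 115 miRNAs were tested only through their calvaria counts and 41 only through their late culture counts, and the direction of those was largely fixed by it.

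**Figure D1:**
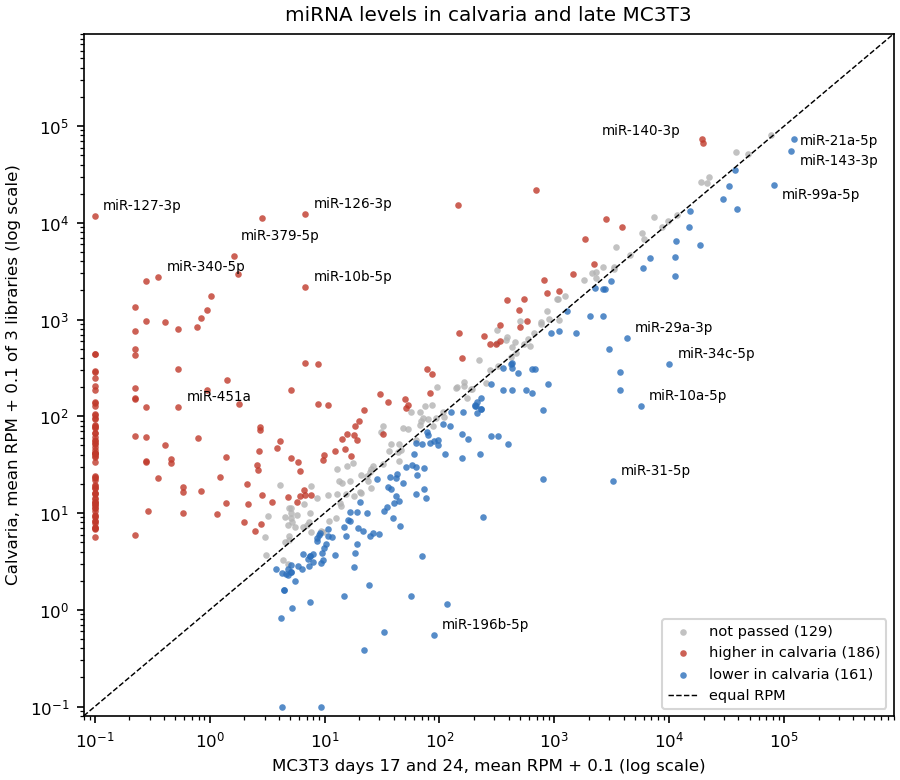
Mean RPM of each tested miRNA in calvaria (vertical, 3 libraries) and in MC3T3 days 17 and 24 (horizontal), each plus 0.1 on a log scale. Red points passed as higher in calvaria (186), blue as lower (161) and grey did not pass (129); the column of red points at the left edge holds miRNAs with 0 counts in both late libraries.

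The imprinted Dlk1-Dio3 domain supplied most of the miRNAs seen in calvaria alone, 43 of 51. Its miRNAs, expressed from the maternal chromosome in placental mammals, made up 4.95%, 5.48% and 3.77% of counts in calvaria 1, 2 and 3, against 0.00101% and 0.00116% at days 17 and 24. In counts, 220077 fell to these miRNAs in calvaria and 72.0 in both late libraries together. Of the 113 members in the table, 73 were tested and all 73 were higher, with a median log2 difference of 7.44 when members at 0 are set to their bound. Of those, 72 had under 10 counts in both late libraries and so passed the filter through calvaria alone, which makes this count a description of where they were found.

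The most abundant member by calvaria mean was miR-127-3p, which is processed from a transcript antisense to the Rtl1 exon (chr12:109592846-109592915, + strand, mm10). It had 12573, 14921 and 7629 RPM in calvaria 1, 2 and 3 and 0 in both late libraries. In calvaria 3 miR-379-5p was above it. Its pooled level was at least 27081-fold higher in calvaria, taking 3 counts over the late libraries as the limit. Further along the domain, miR-379-5p (hairpin at chr12:109709060-109709125, + strand, outside annotated genes) had 10497, 11877 and 11616 RPM, against 3.30 and 2.19 RPM (log2 difference 11.65, SE 0.28, edgeR adjusted p = 2.53e-07). Its neighbour miR-411-5p had 4615, 5331 and 3645 RPM, against 1.27 and 1.82 RPM. The 3 most abundant members held 55.9%, 58.6% and 60.8% of the summed RPM of the list in calvaria 1, 2 and 3.

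The domain ran at unequal levels along its length. In the calvaria mean, 30 members reached 100 RPM and 8 reached 1000 RPM. Hairpins fell into 3 runs with gaps of under 10000 bases: Mir770 to Mir136 (19 tested miRNAs), Mir341 to Mir370 (2) and Mir379 to Mir3072 (48), and every tested miRNA in them was higher in calvaria. Members in the first 100 kb had 22387, 24619 and 13914 RPM in calvaria 1, 2 and 3. Those further along had 26860, 29912 and 23541 RPM. Calvaria 3 was the lowest calvaria library for 62 of the 73 tested members. Without it, 70 members were called, all higher.

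**Figure D2:**
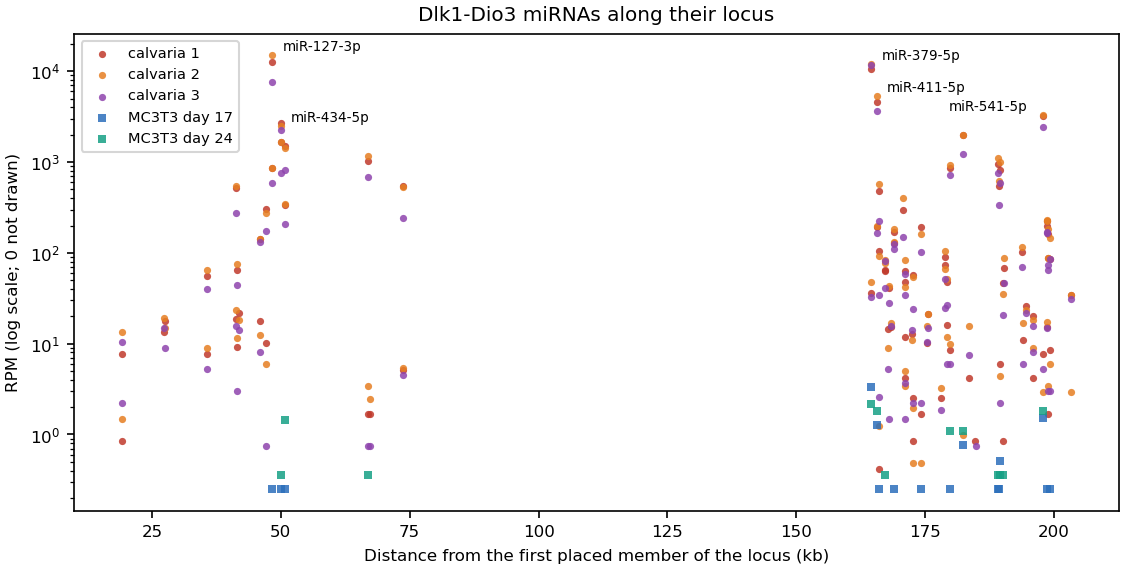
RPM (log scale) of each placed Dlk1-Dio3 miRNA against its distance in kb from the first placed member, for calvaria 1 to 3 (circles) and MC3T3 days 17 and 24 (squares). Values of 0 are not drawn; calvaria values reach 14921 RPM for miR-127-3p and the highest culture value is 3.30 RPM for miR-379-5p at day 17.

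At other imprinted loci the number of calls depended on the setting. Of 6 miRNAs from the Igf2, H19 and Mest loci, 4 were higher and 2 did not pass. Those 4 were tested only through calvaria, so the filter largely fixed their direction. All 6 were called higher with library totals, with DESeq2 size factors, without calvaria 1 and without calvaria 3. With upper quartile factors 4 were. miR-483-3p, from an intron of the growth factor gene Igf2, had 403, 396 and 134 RPM in calvaria and 0.51 and 0.36 RPM late. On pooled counts it was 714-fold higher (exact 95% counting interval 244 to 3466). miR-675-3p, cut from an exon of the noncoding RNA H19, had 33.0, 24.7 and 13.4 RPM and was at 0 in all culture days. miR-335-5p, hosted by Mest, had 552, 746 and 668 RPM against 409 and 365 RPM. Its ranges did not overlap, but it did not pass (log2 difference 0.47, SE 0.19, edgeR adjusted p = 0.0591). It passed with library totals and without calvaria 3.

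Hox cluster miRNAs mark body position and lie among the Hox genes that they help to regulate. Of the 6 tested, 1 was higher in calvaria and 5 were lower. miR-10a-5p (chr11:96317165-96317274, + strand, outside annotated genes) had 88.3, 121 and 172 RPM in calvaria and 5620 and 5650 RPM late. The groups were far apart, with a log2 difference of -5.77 (SE 0.30, edgeR adjusted p = 5.58e-06). miR-10b-5p (chr2:74726070-74726137, + strand, in an intron of Hoxd3 and Hoxd4) went the other way, with 1565, 1954 and 2917 RPM against 5.33 and 8.02 RPM (log2 difference 8.07, SE 0.49, edgeR adjusted p = 1.24e-05). miR-10b-5p was 94.7%, 94.2% and 94.4% of the pair in calvaria and 0.0947% and 0.142% late, although only base 12 separates them. Because their seed is shared, the 2 partly cancelled: summed by seed, the log2 difference was -1.72 (SE 0.29, edgeR adjusted p = 0.00177). Seed sums were fitted with their own TMM factors, so their differences are on another scale than those of single miRNAs.

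The miR-196 pair, from posterior Hox positions, was almost unseen in calvaria. miR-196b-5p had 0.85, 0.49 and 0 RPM in calvaria against 79.4 and 99.2 RPM late. miR-196a-5p had 0, 0 and 1.48 RPM against 38.6 and 26.6 RPM. Both rested on 2 counts in calvaria, and pooled ratios of calvaria to culture were 0.00502 (exact 95% counting interval 0.000607 to 0.0182) and 0.0131 (0.00157 to 0.0477). miR-615-3p, hosted by a Hoxc gene, had 1.69, 1.48 and 0.74 RPM against 61.7 and 51.4 RPM. Of these 6 miRNAs, 4 were tested only through the cultures, and without either culture library only 2 of the 6 could be tested, 1 higher and 1 lower.

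miRNAs that mark other cell types separated the materials too. In bulk RNA, fewer cells of a type and less RNA per cell cannot be told apart. miR-126-3p, characteristic of endothelium, had 8135, 9725 and 19091 RPM in calvaria and 7.87 and 5.47 RPM late (log2 difference 10.53, SE 0.67, edgeR adjusted p = 1.47e-05). Its other arm, miR-126-5p, had 893, 1024 and 1232 RPM against 0.76 and 0.73 RPM. That arm was tested only through calvaria, so the filter largely fixed its direction. Both endothelial arms were higher, and their summed share was 0.903% to 2.03% of calvaria counts against 0.000863% and 0.000620% late.

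Blood cell markers were low in level. All 8 tested leukocyte miRNAs were higher, their sum being 0.0497% to 0.0591% of counts in calvaria and 0.0121% and 0.0128% late. The count was 5 without day 17, and 5 of the 8 had been tested only through calvaria. miR-223-3p, of myeloid cells, had 39.7, 29.2 and 32.8 RPM against 0 and 0.36 RPM. miR-142-3p, found across blood cells, had 49.9, 37.1 and 64 RPM against 0.25 and 0.36 RPM. Among 4 tested erythroid miRNAs, 3 were higher, all tested only through calvaria, and 1 was lower. miR-451a, which matures in red cell precursors, had 85.4, 116 and 170 RPM against 0.51 and 0.36 RPM, whereas miR-486-5p was lower with 47.8, 51.9 and 59.5 RPM against 81.1 and 84.6 RPM. That call was lost without calvaria 1 (edgeR adjusted p = 0.0655).

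All 4 cartilage miRNAs were higher, from a base that was already high in culture. miR-140-3p, from an exon of Wwp2 and central to chondrocyte development, had 86014, 87452 and 46597 RPM against 18250 and 20154 RPM (log2 difference 1.62, SE 0.28, edgeR adjusted p = 0.00162). miR-140-5p had 12570, 11906 and 8512 RPM against 2793 and 2820 RPM. miR-455-5p, a second cartilage miRNA, had 11510, 10053 and 5394 RPM against 4384 and 3420 RPM (edgeR adjusted p = 0.0294). Both miR-455 arms lost their call with upper quartile factors and without either culture library. Calvaria 3 was the lowest calvaria library for all 4 cartilage miRNAs and the highest for both endothelial and all 4 erythroid ones. The 3 lists kept 4, 2 and 2 higher calls without it. The part of these cell types in the other differences was not tested.

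Muscle, nerve, skin and liver markers were present in small amounts. Of 4 tested muscle miRNAs 2 were higher and 1 lower. miR-1a-3p had 243, 202 and 381 RPM against 88.1 and 82.4 RPM, and miR-499-5p had 3.38, 2.47 and 2.23 RPM against 19.8 and 16 RPM. miR-499-5p was tested only through the late cultures, so the filter largely fixed its direction. Against all 5 culture days it lost its call (edgeR adjusted p = 0.0599). Of 14 epithelial miRNAs 2 were tested and both were higher, 1 of them tested only through calvaria, which largely fixed its direction. The skin miRNA miR-203-3p led with 52.4, 56.4 and 55.8 RPM against 1.02 and 6.93 RPM. Among those not tested, miR-205-5p had 1, 4 and 2 counts in calvaria against 11 and 7 late. miR-200a-3p, also not tested, had 13, 8 and 6 counts against 6 and 1. Nervous system miRNAs gave 1 higher and 1 lower of 4. The liver miRNA miR-122-5p did not pass, with 2.54, 2.47 and 9.68 RPM against 4.06 and 4.74 RPM. None of the 22 miRNAs of pluripotent cells was tested, and 17 of them were at 0 in all 5 libraries.

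**Figure D3:**
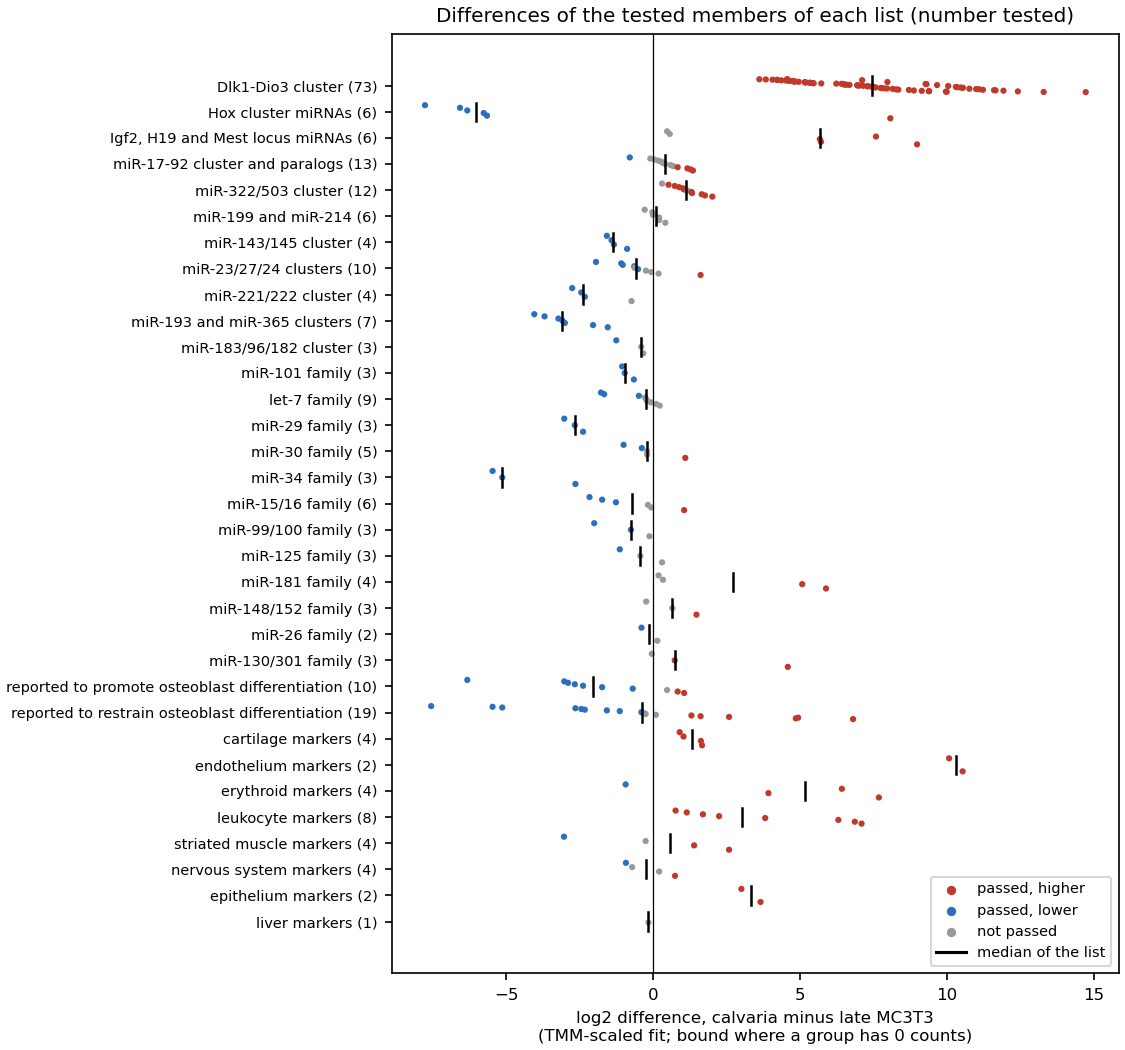
Fitted log2 difference of each tested member (points) and the median (black line) for each list, with the number tested in brackets; members with 0 counts in a group are drawn at their bound. Dlk1-Dio3, endothelial and blood cell lists lie to the right, the miR-34, miR-193/365, miR-29 and most Hox miRNAs to the left, and miR-199/214 around 0.

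Outside these lists stood miR-340-5p (chr11:50069702-50069799, + strand, in an intron of Rnf130). It had 3048, 2937 and 2285 RPM in calvaria and 0.51 and 0 RPM late. On pooled counts it was 9266-fold higher (exact 95% counting interval 2565 to 76521), resting on 2 late counts. miR-676-3p had 125, 110 and 141 RPM against 0 and 0.36 RPM. In both cases every calvaria library was above all 5 culture days. miR-217-5p, best known from pancreas, had 8.45, 52.9 and 82.6 RPM in calvaria and was at 0 in all culture days. miR-340-5p, miR-676-3p and miR-217-5p were each tested only through calvaria, so the filter largely fixed their direction.

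On the culture side, the lowest log2 difference at 100 RPM or more belonged to miR-31-5p, reported to restrain osteoblast differentiation (chr4:88910557-88910662, − strand, in an exon of a lincRNA). It had 28.7, 20.8 and 14.1 RPM in calvaria and 3538 and 2897 RPM late (log2 difference -7.56, SE 0.24, edgeR adjusted p = 7.54e-07). Its other arm, miR-31-3p, had 1.69, 1.48 and 0 RPM against 138 and 94.4 RPM. Both arms were lower in calvaria (log2 -7.56 and -6.95). miR-31-3p was tested only through the late cultures, so the filter largely fixed its direction. At day 0 miR-31-5p was already at 1077 RPM, above every calvaria library.

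The miR-34 family, induced by p53 and known to slow cell division, was lower in all 3 tested members. miR-34c-5p had 378, 304 and 361 RPM in calvaria and 11126 and 8797 RPM late (log2 difference -5.14, SE 0.18, edgeR adjusted p = 8.41e-07). miR-34b-5p, from the same cluster, had 34.2, 25.7 and 7.82 RPM against 947 and 660 RPM. miR-34a-5p, which lies on another chromosome, had 74.4, 60.8 and 53.6 RPM against 379 and 260 RPM. The clustered members differed by more (log2 -5.47 for miR-34b-5p) than miR-34a-5p (log2 -2.65), though the gap between members was not tested.

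A second group lower in calvaria comprised miR-708, miR-193 with miR-365, and miR-210. miR-708-5p had 201, 198 and 168 RPM against 4191 and 3225 RPM (log2 difference -4.59, SE 0.17, edgeR adjusted p = 1.01e-06). All 7 tested miRNAs of the miR-193 and miR-365 clusters were lower, with a median of -3.09. Without either culture library 4 of the 7 could be tested, and all 4 were lower; the other 3 were tested only through the late cultures. Its most abundant member, miR-365-3p, had 161, 121 and 69.2 RPM against 818 and 780 RPM. miR-210-3p, the miRNA induced by low oxygen, had 534, 561 and 381 RPM against 3311 and 2673 RPM (log2 difference -2.90, SE 0.19, edgeR adjusted p = 1.54e-05). Those calvaria levels lay above days 0 and 6 (100 and 357 RPM) and below day 10 (1308 RPM).

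The miR-29 family, which targets collagens and other matrix genes, was lower in all 3 members. Of these, 1 was tested only through the late cultures, so the filter largely fixed its direction. miR-29a-3p had 721, 643 and 575 RPM in calvaria and 4323 and 4204 RPM late (log2 difference -3.03, SE 0.14, edgeR adjusted p = 3.76e-06). miR-29b-3p and miR-29c-3p were scarcer, with log2 differences of -2.39 and -2.67. Summed by the shared seed, on the separate scale of the seed fit, the difference was -3.14 (SE 0.14). Calvaria was below every culture day for each member. The cell cycle pair miR-221 and miR-222 was lower in 3 of 4 arms, miR-221-3p having 223, 220 and 200 RPM against 841 and 906 RPM. Lower too were all 4 arms of miR-143 and miR-145, miRNAs of smooth muscle and fibroblasts (median -1.38). miR-143-3p had 52572, 50332 and 64103 RPM against 117479 and 111964 RPM.

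**Figure D4:**
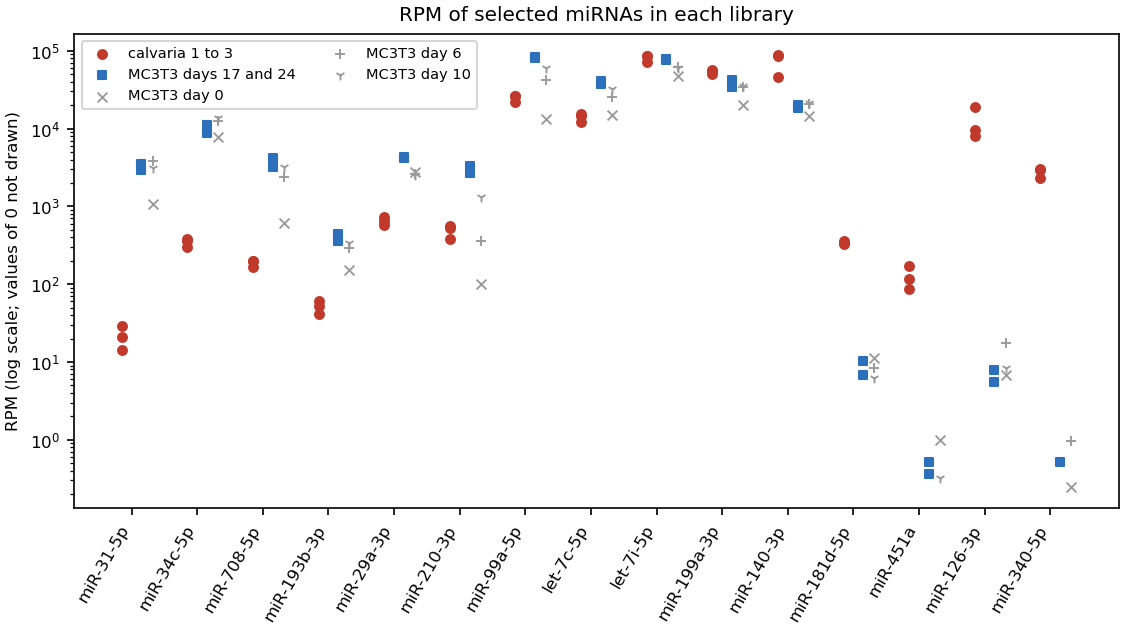
RPM (log scale) of 15 miRNAs in calvaria 1 to 3 (red circles), MC3T3 days 17 and 24 (blue squares) and MC3T3 days 0, 6 and 10 (grey marks), with values of 0 not drawn. From miR-31-5p to let-7c-5p the red points lie below the blue ones, let-7i-5p overlaps, and from miR-140-3p to miR-340-5p the red points lie above.

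The most abundant miRNAs differed by smaller factors. miR-21a-5p, a miRNA of growing and stressed cells, had 71351, 54076 and 97400 RPM in calvaria and 112325 and 129985 RPM late (log2 difference -1.0, SE 0.26, edgeR adjusted p = 0.0116). It was lower without reaching the gap to day 0, where it stood at 455477 RPM. With all 8 libraries in the fit its call was lost (log2 difference -0.91, edgeR adjusted p = 0.134). miR-148a-3p was higher, with 47168, 64874 and 90592 RPM against 15088 and 24488 RPM (log2 difference 1.47, SE 0.36, edgeR adjusted p = 0.00917). Calvaria 3 was the highest library for it, and with all 8 libraries in the fit its call was lost (log2 difference 1.55, edgeR adjusted p = 0.0874). let-7i-5p, the leading calvaria miRNA by mean, had 85606, 85927 and 71758 RPM against 77525 and 77060 RPM. These overlapped and did not pass (log2 difference -0.24, SE 0.13, edgeR adjusted p = 0.129). miR-199a-3p, a miRNA of mesenchyme, had 54409, 55986 and 49959 RPM against 41864 and 33768 RPM and did not pass either (log2 difference 0.20, edgeR adjusted p = 0.198). None of the 6 miR-199 and miR-214 arms passed with these 5 libraries and TMM factors, whereas 3 were higher with library totals, 3 were higher without calvaria 3 and 1 was lower with upper quartile factors. miR-199b-5p was also called higher with a mean of 100 counts, against days 6 to 24 and without the doubtful entries. miR-199a-3p and miR-199b-3p share their seed, and their log2 differences moved together across settings. Both were at 0.45 with DESeq2, 0.52 against all 5 culture days and -0.12 with upper quartile factors. Reads could be divided between these 2 entries, so their values are uncertain as separate miRNAs. Both are among the 6 arms and among the 3 higher calls, which therefore may not be independent. Among abundant entries, miR-6243 (21101, 24826 and 19928 RPM against 617 and 767 RPM) and miR-5109 (17501, 15171 and 13515 RPM against 153 and 137 RPM) were higher too, but their status as miRNAs is doubted.

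In some families, members received different calls; the differences between members were not tested. In the let-7 family, 3 of 9 were lower and 6 did not pass. let-7c-5p had 14315, 15279 and 12145 RPM against 40566 and 37109 RPM (log2 difference -1.78, SE 0.13, edgeR adjusted p = 3.28e-05). let-7b-5p and let-7c-5p together were 8.96%, 9.17% and 9.0% of the family's RPM in calvaria and 23.5% and 21.9% late. The summed RPM of the family was 176468 to 219294 in calvaria and 222499 and 219680 late. With upper quartile factors 7 of the 9 were lower, and with library totals 1 was higher and 2 were lower. These miRNAs differ by single bases (let-7c-5p to let-7b-5p is A17G), so reads could be shared among them.

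miR-99a-5p shares a host transcript with 1 copy of let-7c and was lower as well. It had 25986, 26615 and 21650 RPM in calvaria and 82000 and 80008 RPM late (log2 difference -2.01, SE 0.13, edgeR adjusted p = 1.51e-05). All 4 tested arms of that cluster were lower, between -2.61 and -1.78. Its relative miR-100-5p, separated by U16A, differed less, with 23958, 23473 and 25259 RPM against 35141 and 31618 RPM (log2 difference -0.76). miR-99b-5p did not pass. The share of miR-99a-5p in the family was 45.7%, 46.8% and 40.4% in calvaria and 66.6% and 67.9% late.

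In the miR-181 family, only the scarce members passed with these 5 libraries and TMM factors. miR-181c-5p had 140, 134 and 123 RPM in calvaria against 2.28 and 1.09 RPM (log2 difference 5.88, SE 0.31, edgeR adjusted p = 5.91e-06). It was tested only through calvaria, so the filter largely fixed its direction. miR-181d-5p had 332, 340 and 364 RPM against 6.85 and 10.4 RPM (log2 difference 5.07, SE 0.27, edgeR adjusted p = 5.91e-06). In calvaria, miR-181d-5p held 2.07% to 2.58% of the family and miR-181c-5p 0.870% to 0.887%. miR-181a-5p, which carried 75.7% to 78.7% of the family in every library, had 12197, 11470 and 11106 RPM against 5823 and 8975 RPM. It did not pass (edgeR adjusted p = 0.202). It was called higher with library totals, with DESeq2, with limma and without calvaria 3. It was also called higher against all 5 culture days (log2 difference 1.14) and against days 6 to 24 (1.04). Its log2 difference was 0.62 without day 24 and -0.01 without day 17. Summed by seed, the family did not pass (log2 difference 0.23, SE 0.19, edgeR adjusted p = 0.313). In the miR-30 family, miR-30a-5p was lower (log2 -1.01) and miR-30b-5p higher (log2 1.09).

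**Figure D5:**
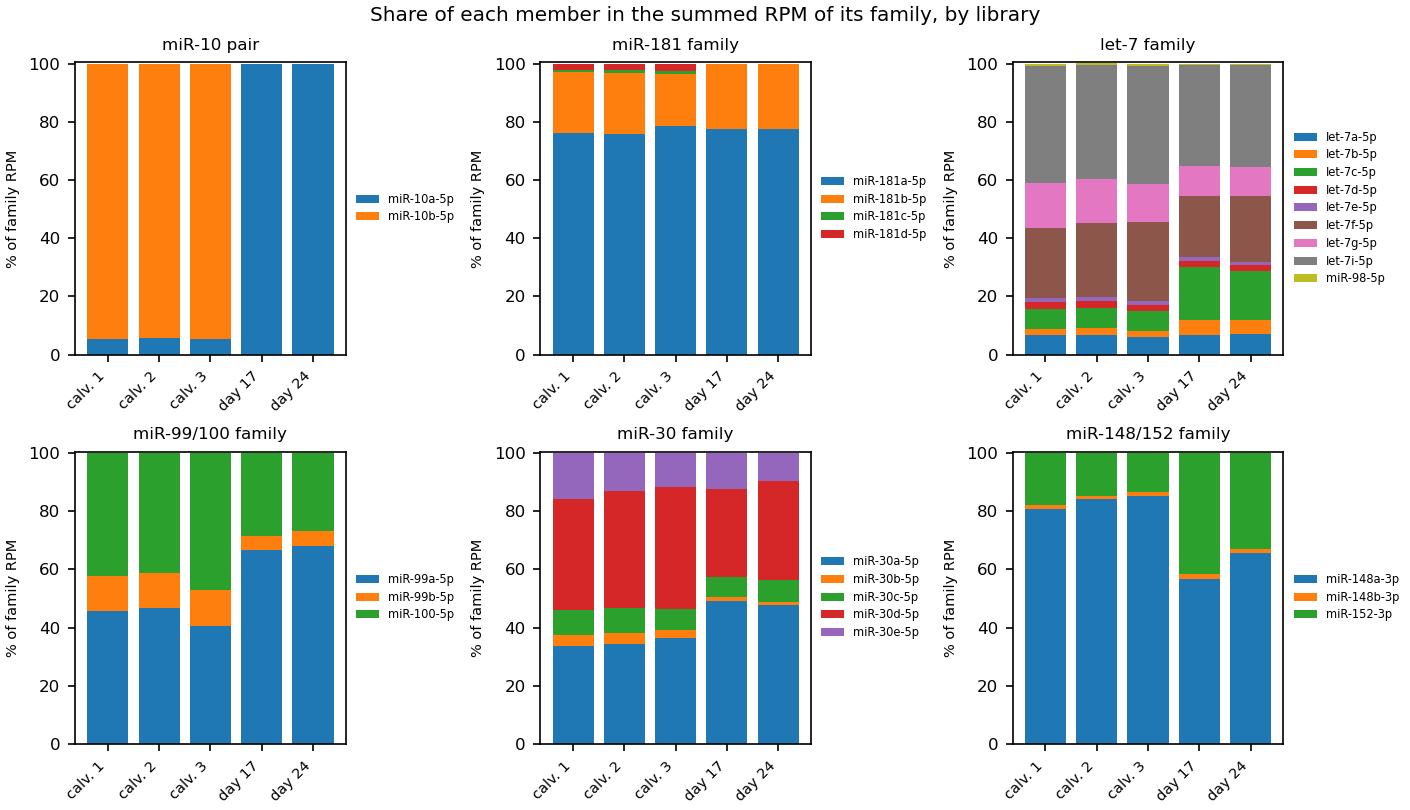
Percent of the summed RPM of each family held by each member, in stacked bars for calvaria 1 to 3 and MC3T3 days 17 and 24. miR-10b-5p fills about 94% of its pair in calvaria and under 0.15% late; let-7b-5p with let-7c-5p, and miR-99a-5p, take larger shares late, and miR-181a-5p and miR-181b-5p dominate their family in every library.

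Of 44 seeds shared by 2 or more tested miRNAs, 6 had members called in both directions and 17 had all members called in 1 direction. Of all seeds tested, 127 (42.2%) were higher and 92 (30.6%) lower. miR-146 gave another split: miR-146a-5p, of inflammatory signalling, had 132, 174 and 210 RPM against 28.9 and 31.0 RPM, and miR-146b-5p had 2929, 2438 and 3112 RPM against 10508 and 11866 RPM. Sequences were found for 371 of the 476 tested miRNAs (77.9%), so these sums leave out some members.

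Hairpins within 10000 bases of each other formed 32 clusters, of which 5 had every tested miRNA higher, 6 had every one lower and 4 had calls in both directions. The 5 were the 3 runs of the Dlk1-Dio3 domain, Mir216a to Mir217 and Mir144 to Mir451a. Nearly all of their miRNAs were tested only through calvaria, so their shared direction is a description. Some of the 6 with every one lower also held miRNAs tested only through the late cultures, such as miR-193b-5p and miR-29b-1-5p. The cluster of miR-221 and miR-222, also among the 6, held none. For miRNAs tested only through the late cultures the filter largely fixed the direction. Among the clusters with calls in both directions was that of miR-23a, miR-27a and miR-24 on chromosome 8. miR-23a-3p, reported to restrain osteoblast differentiation, had 5777, 5169 and 9618 RPM against 1824 and 1855 RPM (log2 difference 1.61, SE 0.31, edgeR adjusted p = 0.0031). miR-27a-3p, some bases away, had 3288, 3455 and 3500 RPM against 5721 and 6099 RPM (log2 difference -1.09, SE 0.14, edgeR adjusted p = 0.000401). The cluster of miR-322 and miR-503, which acts on cell cycle genes, was higher in 10 of 12 arms (median 1.11), with 5 without day 17, 6 without day 24 and 6 with upper quartile factors. Its largest difference was miR-503-5p, with 754, 914 and 529 RPM against 165 and 131 RPM. In the proliferation cluster miR-17-92 and its paralogs, 4 of 13 were higher and 1 lower, with 9 higher without calvaria 3 and 2 without day 24. miR-92a-3p had 2811, 2680 and 2151 RPM against 805 and 813 RPM.

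The study's title names miR-101a, which is reported to act on chromatin and signalling genes. miR-101a-3p (chr4:101346945-101347027, − strand, in a lincRNA exon) had 4296, 3765 and 4909 RPM in calvaria and 6528 and 7174 RPM late. It was lower than both late days (log2 difference -0.97, SE 0.17, edgeR adjusted p = 0.00224) and above day 0 (1015 RPM). Against all 5 culture days the difference was -0.29 and did not pass (edgeR adjusted p = 0.567). The call was also lost against days 6 to 24 (log2 difference -0.54, edgeR adjusted p = 0.0867). With all 8 libraries in the fit, calvaria against the late days did not pass either (log2 difference -0.86, edgeR adjusted p = 0.107). miR-101b-3p had 2064, 1862 and 2222 RPM against 2673 and 2589 RPM (log2 difference -0.66, SE 0.15, edgeR adjusted p = 0.00615). It lost its call with library totals, without calvaria 1 and without calvaria 2. miR-101c had 23.7, 26.7 and 24.6 RPM against 38.7 and 47.4 RPM, and lost its call without calvaria 1 (edgeR adjusted p = 0.0619). Its log2 difference was -0.26 against all 5 culture days (edgeR adjusted p = 0.623) and -0.46 against days 6 to 24 (edgeR adjusted p = 0.306).

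Lists of miRNAs reported to act on osteoblasts did not move as a block. Of 10 tested miRNAs reported to promote osteoblast differentiation, 2 were higher and 7 lower in calvaria (median -2.07). The 7 comprised the miR-29 members, miR-196a-5p, miR-210-3p, miR-218-5p and miR-15b-5p. Of the 10, 2 were tested only through the late cultures; without day 17, 4 of 8 tested were lower, and without day 24, 5 of 8. The higher ones were miR-322-5p and miR-20a-5p, and 0 were higher without day 24. Of 19 reported to restrain it, 6 were higher and 9 lower (median -0.39). Of the 19, 3 were tested only through calvaria, so the filter largely fixed their direction. The lower ones included miR-31-5p, the miR-34 members, miR-221-3p and miR-125b-5p, and the higher ones miR-133a-3p and miR-23a-3p.

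Few hairpins passed for a shift in the balance of their arms. Of 122 hairpins with both arms measured, 14 (11.5%) gave relatively more 5p in calvaria and 6 (4.92%) more 3p (limma adjusted p under 0.05). Of these 20, 9 had under 10 counts over both arms in some library, so their ratio there was set by the offset of 0.5 counts. With 10 or more counts required in every library, 6 gave more 5p and 1 more 3p of 94 hairpins. miR-324 was the largest with enough counts, its 5p share being 71.2%, 66.0% and 81.5% in calvaria and 39.1% and 35.9% late (log2 ratio difference 2.19, SE 0.42, limma adjusted p = 0.018). miR-361 had a 5p share of 34.5%, 36.2% and 40.4% against 22.5% and 18.9%.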

How the data were processed

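Small RNA libraries (NEBNext kit, per the labels' protocols) gave a table of estimated counts per mature miRNA and precursor, which the authors deposited with a table of RPM. Dividing each count by the sum of its column gave those RPM to within 0.0127. The submitters' processing notes list cutadapt 0.9.5, Bowtie 0.12.7 and mm10, and no source used here names the quantifier. The day in each culture column name is 3 below its title, and titles were followed. Every culture column name but that of day 0 also carries the tag veh.

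The 1418 entries were summed to 1281 mature miRNAs and the expected counts were rounded. Tests used edgeR 4.0.16 (quasi-likelihood, TMM, Benjamini-Hochberg over all miRNAs, threshold 0.05) in R 4.3.3, seeds the same test on summed counts, and arm ratios limma 3.58.1 with an offset of 0.5. DESeq2 1.42.0 was an alternative. Both tests were also run on simulated data. Those data held no hairpin as sparse as some measured here, and only differences far smaller than the largest measured. They do not bear on such calls. Depth ran from 1183011 to 3940372 counts.

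The comparison, the lists and their members were chosen with earlier results of these data known. Named miRNAs were those with the largest differences at 100 RPM or more, the most abundant, the miR-101 family, the leading members of each list, and the leading seeds and arm ratios. Alternatives in scaling, model, filter, culture days and left-out libraries are given at the end.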

Additional observations from a re-analysis of the deposited data

How the results depend on the processing

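Of 119 named miRNAs, 89 passed, and 65 of these kept call and direction in every setting run. No named miRNA that passed with the settings of the report changed sign in another, and no value of changed sign passed. A mean of 100 counts left 236 miRNAs to test, with 88 higher, 76 lower, and 61 higher and 57 lower seeds. The DESeq2 Wald test gave 104 lower, and library totals 55 lower seeds. Leaving out 1 library gave 94 to 143 lower miRNAs (159 to 206 higher) and 51 to 74 lower seeds. For arm ratios, leaving out 1 library gave 5 to 10 with more 5p and 1 to 3 with more 3p; a mean of 50 counts per arm gave 1 and 2, an offset of 5 gave 23 with more 3p, and 10 counts over both arms in every library, chosen after seeing the data, gave 6 and 1. Without 6 doubtful entries, also chosen afterwards, 188 were higher (55.3% of those called). The cause of these shifts was not tested, apart from fewer miRNAs or libraries entering. No paired analysis was possible because the labels give the groups no shared replicate numbers. Depth limits miRNAs under about 3 counts in a group.

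Some log2 differences that did not pass with the settings of the report changed sign in others, and some of these miRNAs passed in another setting, such as miR-206-3p at -0.90 without calvaria 3. With DESeq2 let-7i-5p was at 0.02, let-7f-5p at 0.03, miR-199a-5p at 0.22, miR-30d-5p at 0.03, miR-30e-5p at 0.05, miR-16-5p at 0.06, miR-99b-5p at 0.11, miR-152-3p at 0.00, miR-130a-3p at 0.20, miR-122-5p at 0.08. With DESeq2 size factors let-7i-5p was at 0.02, let-7f-5p at 0.03, miR-199a-5p at 0.22, miR-30d-5p at 0.03, miR-30e-5p at 0.05, miR-16-5p at 0.06, miR-99b-5p at 0.11, miR-152-3p at 0.00, miR-130a-3p at 0.19, miR-122-5p at 0.06. With all 5 culture days let-7i-5p was at 0.13, miR-199a-5p at 0.01, miR-24-3p at 0.04, miR-16-5p at 0.09, miR-152-3p at 0.18, miR-130a-3p at 0.16. With days 6 to 24 let-7i-5p was at 0.12, miR-199a-5p at 0.07, miR-24-3p at 0.00, miR-130a-3p at 0.11, miR-122-5p at 0.01. With all 8 libraries miR-199a-5p was at 0.08, miR-130a-3p at 0.05. With library totals let-7i-5p was at 0.07, let-7f-5p at 0.09, miR-199a-5p at 0.27, miR-214-3p at 0.01, miR-24-3p at 0.05, miR-30d-5p at 0.09, miR-30e-5p at 0.09, miR-16-5p at 0.11, miR-99b-5p at 0.17, miR-152-3p at 0.06, miR-130a-3p at 0.23, miR-206-3p at 0.02, miR-122-5p at 0.09. With limma with 1 RPM added let-7i-5p was at 0.06, let-7f-5p at 0.09, miR-199a-5p at 0.26, miR-214-3p at 0.01, miR-24-3p at 0.03, miR-183-5p at 0.00, miR-30d-5p at 0.09, miR-30e-5p at 0.09, miR-16-5p at 0.06, miR-99b-5p at 0.17, miR-152-3p at 0.05, miR-130a-3p at 0.23. With limma with 10 RPM added let-7i-5p was at 0.06, let-7f-5p at 0.09, miR-199a-5p at 0.26, miR-214-3p at 0.01, miR-24-3p at 0.03, miR-30d-5p at 0.09, miR-30e-5p at 0.09, miR-16-5p at 0.06, miR-99b-5p at 0.17, miR-152-3p at 0.05, miR-130a-3p at 0.21, miR-122-5p at 0.01. With a mean of 100 counts miR-199a-5p was at 0.03, miR-130a-3p at 0.02. With upper quartile factors miR-199a-3p was at -0.12, miR-351-5p at -0.03, miR-181b-5p at -0.15, miR-26b-5p at -0.19, miR-9-5p at -0.13, let-7g-5p at -0.23, miR-199b-3p at -0.12. Without the doubtful entries miR-199a-5p was at 0.02, miR-130a-3p at 0.00. With 1 library left out, ranges that crossed 0 were let-7i-5p -0.31 to 0.03, let-7f-5p -0.34 to 0.01, miR-199a-3p -0.02 to 0.43, miR-199a-5p -0.16 to 0.19, miR-182-5p -0.99 to 0.24, miR-183-5p -0.80 to 0.07, miR-30e-5p -0.46 to 0.08, miR-16-5p -0.34 to 0.13. Others were miR-99b-5p -0.23 to 0.05, miR-181a-5p -0.01 to 0.62, miR-181b-5p -0.17 to 0.48, miR-152-3p -0.40 to 0.02, miR-130a-3p -0.34 to 0.21, miR-206-3p -0.90 to 0.25, miR-122-5p -0.90 to 0.35, miR-199b-3p -0.02 to 0.42.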
